A study of Homo sapiens with 8 samples.

Results

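CLDN1, CLDN3, CLDN4, CLDN7, CLDN12, OCLN, TJP1, F11R and MARVELD2 encode claudins and other core components of the epithelial tight junction. These 9 genes were taken by symbol from the 25369 rows of the count table, and each was found once. They were followed in MCF10A cells, a nontransformed human mammary epithelial line, kept for 7 days as a 3D culture in 4 hydrogels with 2 libraries per gel. The soft IPN and the stiff IPN are interpenetrating networks of alginate and reconstituted basement membrane (rBM), and only the stiff IPN is crosslinked with calcium. Added calcium thus differs along with stiffness between the IPNs. The soft col:rBM gel holds little collagen-1 together with rBM, and the stiff col gel holds dense collagen-1 and is named without rBM. The methods text gives the same rBM concentration for all experiments and does not state whether the stiff col gel lacks it. Collagen-1, alginate and calcium therefore all differ between the 2 stiff gels, and collagen-1 differs along with stiffness between the 2 collagen gels. By the gel names rBM may differ in both comparisons as well. No gel was combined with a gene deletion or a drug, and all 4 hold cells of the same line.

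Tight junctions seal the space between neighbouring epithelial cells near the apical surface. Claudins are tetraspan membrane proteins whose extracellular loops form the strands of the seal and set which ions pass, while occludin (OCLN) and tricellulin (MARVELD2) are MARVEL domain proteins of the strands and of the corners where cells meet. F11R encodes JAM-A, an immunoglobulin-like adhesion protein, and TJP1 encodes ZO-1, the cytoplasmic scaffold that ties claudins, occludin and JAM-A to actin. In mammary epithelium these genes help separate the lumen from the tissue, and claudin-low states are known in breast cancers with mesenchymal features.

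The libraries held 13065615 to 18590052 counts on genes, as worked out from the deposited values, where a count (a read here) may stand for a read pair, since sequencing was paired-end. The deposited values are read counts scaled by 1 factor per library and rounded, called normalized counts here. Depending on the library, 3 reads, taken as the limit of detection, equal 2.41 to 3.73 normalized counts, and this limit covers counting error only. Genes with at least 10 normalized counts in at least 2 libraries were tested (13369), and 8 of the 9 members passed this filter. The basal keratin gene KRT5 had 7417 to 44022 normalized counts and the E-cadherin gene CDH1 had 1283 to 5620, whereas of the fibroblast markers COL1A2 was listed at 0 in all 8 libraries, COL3A1 reached 1 at most and PDGFRB 9. Other genes of the same lists were present, with 526 to 1217 normalized counts of DCN, 168 to 333 of COL1A1 and, among leukocyte markers, 324 to 5017 of CD68 beside 0 of PTPRC. Libraries with the same replicate number were taken to come from the same trial, which neither the sample titles nor the methods state. The 2 trials differed within every gel, so each comparison is given without and with the trial as a block. The RNA was taken from whole gels, so fewer cells with a transcript and less transcript per cell cannot be told apart.

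The members spanned a wide range of levels. Per kilobase of annotated exon, F11R had the highest mean level in all 4 gels, between 1120 and 1420 normalized counts per kilobase, followed by CLDN7 with 460 to 1030. TJP1 had means of 104 to 117 normalized counts per kilobase and CLDN12 of 140 to 173. MARVELD2 had 25.8 to 28.8. OCLN, with 3.51 to 35.6, was the lowest of the 8 tested members in soft IPN, soft col:rBM and stiff col. CLDN1 ran from 13.5 in soft col:rBM to 473 in stiff IPN, where it stood next after F11R and CLDN7. CLDN3 (chr7:73183327-73184600, minus strand, hg19) had 1 normalized count in soft IPN replicate 1 and in soft col:rBM replicate 1 and 0 in the other libraries, all under the limit of 3 reads, so no fold was computed for it.

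**Figure D1:**
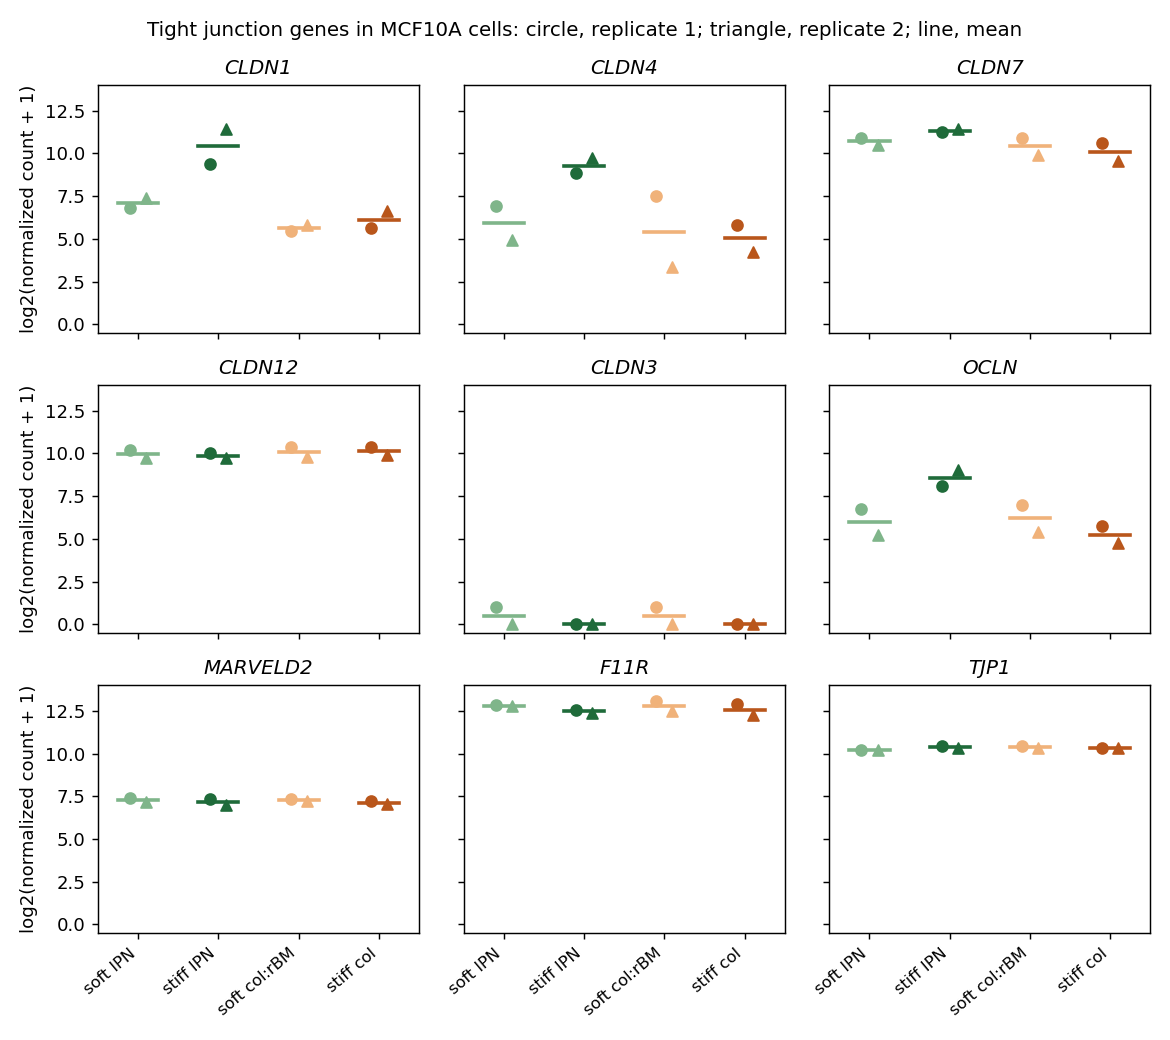
Level of the 9 genes in each library, as log2(normalized count + 1), by gel; circles are replicate 1, triangles replicate 2, and lines the mean of the 2 libraries. CLDN1, CLDN4, OCLN and CLDN7 have both of their highest libraries in stiff IPN, TJP1, MARVELD2, CLDN12 and F11R lie near 1 level in all gels, and CLDN3 lies at 0 or 1 normalized count.

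CLDN1 (chr3:190023496-190040235, minus strand, 4 exon blocks) encodes a barrier-forming claudin. It had 112 and 166 normalized counts in soft IPN, 672 and 2761 in stiff IPN, 43 and 55 in soft col:rBM and 48 and 96 in stiff col. Both stiff IPN libraries lay above all others, and the stiff IPN mean was 1716.5 ± 1480 (SD, n = 2) against 139 ± 38.2 in soft IPN. The order of the means was stiff IPN, soft IPN, stiff col and soft col:rBM, and only the last pair overlapped. The highest library held 64.2 times the normalized count of the lowest.

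CLDN4 (chr7:73213872-73247020, plus strand) encodes a sealing claudin that lies next to CLDN3 on the chromosome. It had 122 and 29 normalized counts in soft IPN, 464 and 837 in stiff IPN, 183 and 9 in soft col:rBM and 55 and 18 in stiff col. Stiff IPN was the only gel whose libraries lay apart from the rest. The other 3 gels overlapped, and in each of them replicate 1 was the higher library, by the largest margin in soft col:rBM. The 9 normalized counts of soft col:rBM replicate 2 are the lowest value of any tested member.

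OCLN (chr5:68788119-68853931, plus strand) had 106 and 37 normalized counts in soft IPN, 273 and 529 in stiff IPN, 127 and 41 in soft col:rBM and 53 and 26 in stiff col. As with CLDN4, both stiff IPN libraries were the highest and the other 3 gels overlapped. CLDN7 (chr17:7163222-7167302, minus strand), the most abundant claudin here, had 1926 and 1422 in soft IPN, 2424 and 2692 in stiff IPN, 1925 and 960 in soft col:rBM and 1546 and 747 in stiff col. Its stiff IPN libraries were also the 2 highest, with a range over all libraries of 3.6-fold, against 20.3-fold for OCLN and 93-fold for CLDN4. An OCLN pseudogene, OCLNP1, and a CLDN7 pseudogene, CLDN7P1, share sequence with these genes, and reads mapping to several places had been removed.

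The remaining 4 tested members varied little. TJP1 (chr15:29991571-30261118, minus strand) had 1185 and 1158 normalized counts in soft IPN, 1390 and 1264 in stiff IPN, 1394 and 1259 in soft col:rBM and 1304 in both stiff col libraries, a range of 1.2-fold. MARVELD2 (chr5:68710892-68740157, plus strand) had 165 and 144, 162 and 124, 160 and 146, and 148 and 129 in the same order of gels, so all 4 gels overlapped. CLDN12 (chr7:90013035-90142716, plus strand), a claudin that lacks the C-terminal motif by which the others bind ZO-1, had 1151 and 855, 1033 and 851, 1317 and 875, and 1339 and 977. F11R (chr1:160965001-160991133, minus strand) had 7441 and 6889, 5985 and 5370, 8435 and 5743, and 7563 and 4793. The gels of CLDN12 overlapped throughout, and those of F11R were apart only between soft IPN and stiff IPN. Of the F11R exon bases 36.6% are shared with another annotated gene on the same strand, and CLDN12 shares 3.0% to 7.9% with each of 4 neighbours. CLDN7 shares 10.8% with 1 gene and 1.5% with ELP5 on the opposite strand, which the library kit does not tell apart. Of these neighbours only ELP5 and, for CLDN12, GTPBP10 and CDK14 were found in the count table. Reads shared with them cannot be given to a single gene. How reads shared with the other neighbours were counted is not known.

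The bases upstream of the start site are shown for CLDN1, the member with the largest difference that also passed the test, and for TJP1, the member with the smallest range. Both are RefSeq promoters (table on GRCh38.p14) that matched hg19 at 1 place, at chr3:190040236-190040485 for CLDN1 and chr15:30261253-30261502 for the farthest upstream start of TJP1, on the minus strand. Capitals mark the letters CAGGTG or its reverse complement CACCTG, the E-box that SNAI and ZEB repressors are known to bind.
CLDN1: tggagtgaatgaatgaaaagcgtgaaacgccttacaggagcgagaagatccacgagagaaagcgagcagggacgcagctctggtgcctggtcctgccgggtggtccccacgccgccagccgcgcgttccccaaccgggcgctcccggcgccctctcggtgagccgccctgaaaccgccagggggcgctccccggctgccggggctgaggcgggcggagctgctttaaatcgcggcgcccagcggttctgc
TJP1: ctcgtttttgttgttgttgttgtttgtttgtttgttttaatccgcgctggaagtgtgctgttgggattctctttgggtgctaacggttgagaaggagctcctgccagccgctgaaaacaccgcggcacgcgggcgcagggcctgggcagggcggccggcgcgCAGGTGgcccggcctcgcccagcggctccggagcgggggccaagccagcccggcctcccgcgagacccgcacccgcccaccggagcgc
The CLDN1 window holds no such match and the TJP1 window holds 1, from 88 to 83 bases before the start, while the windows of the other TJP1 starts hold none. For the first OCLN start and the second CLDN7 start, whose windows lie in annotated exons of the same genes, 30 bases that hold a match are given, at chr5:68788329-68788358 on the plus strand and chr17:7165798-7165827 on the minus strand.
OCLN: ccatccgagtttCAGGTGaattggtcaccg
CLDN7: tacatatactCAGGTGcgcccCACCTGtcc
This OCLN match lies 33 to 28 bases before that start, a further match lies 133 to 128 bases before the second OCLN start, and the 250 bases before the second CLDN7 start hold 4 matches, while that of the first CLDN7 start holds none. Among 35116 RefSeq promoters 17.5% hold this E-box within 250 bases upstream, 10.7% hold TATAAA, 6.6% hold TTCNNNGAA, the letters of a STAT site, and 1.5% hold AACNGGTT, those of a grainyhead site, on either strand. No window of the 8 members matched holds TATAAA or AACNGGTT, and CLDN12 alone holds TTCNNNGAA. A match is a description of letters, and genes with and without it were found among those high in stiff IPN.

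Stiff IPN was compared with soft IPN to ask how the genes differ with stiffness when rBM and alginate are held constant. Only stiff IPN received calcium for crosslinking, so calcium and stiffness cannot be told apart here. CLDN1 was 9.92-fold higher in stiff IPN, CLDN4 10.3-fold and OCLN 5.98-fold, while TJP1, MARVELD2, CLDN12 and F11R lay within 1.26-fold. With the trial as a block CLDN1 and OCLN rose, and no member passed the test without it. Both stiff IPN libraries lay above both soft IPN libraries for CLDN1, CLDN4, CLDN7, OCLN and TJP1, and below them for F11R. These are 6 of 8 members with no overlap, where 41.9% of all genes tested had none, 20.5% higher and 21.4% lower.

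For CLDN1 the log2 difference was 3.31 ± 0.65 (SE), with a 95% interval from 1.78 to 4.84, and the adjusted p was 0.41 without the block and 0.0131 with it (limma, over all 13369 genes). Over the alternatives tried its adjusted p ran from 0.000366 to 0.999. In replicate 1 the difference was 2.57 and in replicate 2 it was 4.05. For OCLN the difference was 2.58 ± 0.72, with an adjusted p of 0.491 without and 0.0479 with the block, a range over alternatives of 0.000614 to 0.999, and 1.36 and 3.80 within the trials. Both genes were thus higher in stiff IPN in either trial, and more so in replicate 2. For CLDN4 the difference was 3.36 ± 1.33, with an adjusted p of 0.518 without and 0.0803 with the block, and 1.92 and 4.80 within the trials. CLDN4, CLDN1 and OCLN ranked 19, 21 and 50 from the highest of the 13369 log2 differences, and CLDN7, with 0.63 ± 0.42 and an adjusted p of 0.204 with the block, ranked 1535.

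The log2 differences of the others were 0.18 for TJP1 (95% interval −0.20 to 0.56), −0.08 for CLDN12 (−0.74 to 0.58), −0.12 for MARVELD2 (−0.74 to 0.50) and −0.34 for F11R (−1.01 to 0.33), with adjusted p of 0.28 or more in both fits. Without the block 0 members passed by limma, as did 0.0% of all genes tested, and 3 members (CLDN1, CLDN4 and OCLN) had an unadjusted p under 0.05, against 9.31% of all genes. With the block 2 members passed, against 3.82% of all genes with 1.69% higher and 2.13% lower. The median log2 difference over the 8 members was 0.40, beside −0.01 over all genes tested. Without the block, CLDN1 ran from 2.29 (without stiff IPN replicate 2) to 4.33 (without stiff IPN replicate 1), and leaving out soft IPN replicate 2 or 1 gave 2.34 and 4.38 for CLDN4, 1.83 and 3.33 for OCLN and 0.41 and 0.84 for CLDN7. An exact permutation test of 2 libraries against 2 cannot go below a two-sided p of 0.333. Stiff IPN replicate 2 was the library with the highest CLDN1, CLDN4, CLDN7 and OCLN, and without it the CLDN1 difference was 2.61 and that of OCLN 1.42 with the block (adjusted p 0.0127 and 0.0389), where 8.06% of all genes passed. Without stiff IPN replicate 1 they were 4.01 and 3.74 (0.000366 and 0.000614), and CLDN4 (5.09, 0.00377) and CLDN7 (1.12, 0.00979) passed as well, but so did 20.1% of all genes. In each fit without a stiff IPN library the remaining one was assumed to vary like the other gels, and the lowest adjusted p values given above for CLDN1 and OCLN come from such a fit. OCLN did not pass when these 2 gels were fitted by themselves and blocked by trial, where CLDN1 and 2.09% of all genes passed.

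**Figure D2:**
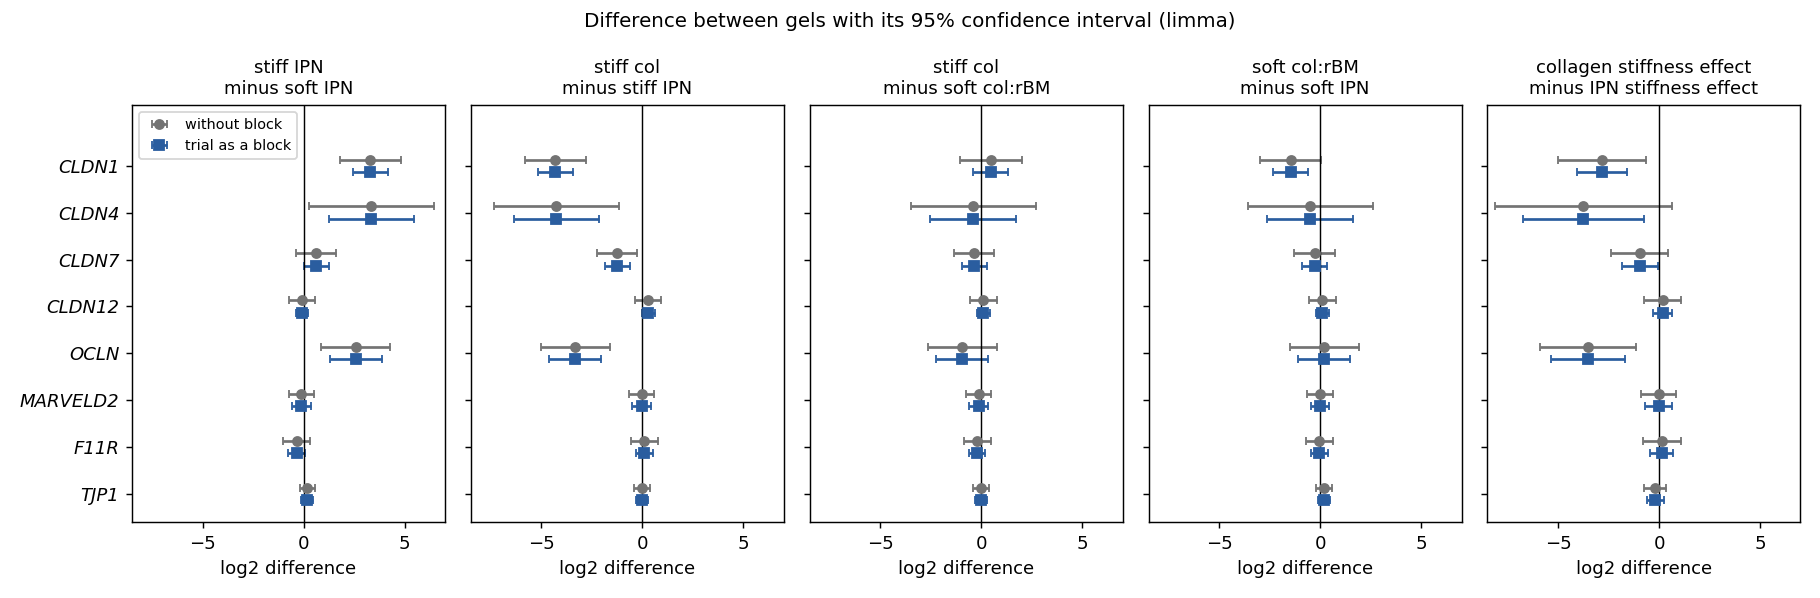
Log2 difference of the 8 tested genes in the 5 comparisons, with 95% confidence intervals from limma without the block (grey circles) and with the trial as a block (blue squares). In the first 2 panels CLDN1, CLDN4 and OCLN lie away from 0, at 3.31, 3.36 and 2.58 and at −4.31, −4.26 and −3.32, while TJP1, F11R, MARVELD2 and CLDN12 lie within 0.34 of 0 in all panels.

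Some markers of the cells differed in this comparison. CDH1 had 2312 and 2724 normalized counts in soft IPN and 3972 and 5620 in stiff IPN, and rose with the block (log2 difference 0.91 ± 0.25, adjusted p 0.491 without and 0.0376 with it). EPCAM, a claudin-binding adhesion gene, had 314 and 181 against 408 and 434, with an adjusted p of 0.138 with the block, and the keratin gene KRT18 had 7326 and 5720 against 5148 and 5509, a log2 difference of −0.28 (0.399 with the block). The summed level of the 3 epithelial markers overlapped, 8625 to 9952 in soft IPN and 9528 to 11563 in stiff IPN, and that of the 4 basal markers was 66039 to 89878 against 41624 to 57417. Of the basal markers KRT5, KRT14 and TP63 overlapped, with −0.28, 0.40 and −0.05, and none of them passed. ITGB4 fell by 1.45 on the log2 scale (adjusted p 0.514 without and 0.0292 with the block), as did CD68 by 2.24 (0.531 and 0.0126), a lysosomal gene that made up nearly all of the leukocyte list while PTPRC stood at 0. Leaving out single libraries, without the block, moved ITGB4 between −2.04 and −0.86 and CD68 between −3.19 and −1.28. The part of these marker shifts in the tight junction values was not tested.

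Stiff col was compared with stiff IPN, 2 stiff gels of different composition, to ask how the genes differ with the matrix. CLDN1 was 19.8-fold lower in stiff col, CLDN4 19.1-fold, OCLN 9.98-fold and CLDN7 2.38-fold, and the libraries of these 4 members did not overlap. CLDN1 and OCLN fell with the trial as a block, and no member passed without it. The same stiff IPN libraries stand in this and the preceding comparison, so the 2 sets of differences are not independent. All genes tested had no overlap in 30.9% of cases, 15.1% with stiff col higher and 15.8% with it lower.

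For CLDN1 the log2 difference was −4.31 ± 0.65, with an adjusted p of 0.225 without and 0.00527 with the block (6.56e-05 to 1.0 over the alternatives), and −3.78 and −4.83 within the trials. For OCLN it was −3.32 ± 0.72, with 0.353 without and 0.0279 with the block (0.000558 to 1.0), and −2.34 and −4.29 within the trials. CLDN4 differed by −4.26 ± 1.33 and CLDN7 by −1.25 ± 0.42, with adjusted p of 0.0564 and 0.0577 with the block, just short of the threshold, and both passed without stiff IPN replicate 1 (0.00263 and 0.00262), with the same assumption on the lone stiff IPN library, as for the lowest adjusted p of OCLN, where 16.5% of all genes passed, while without replicate 2 only CLDN1 and OCLN did, with 5.25% of all genes. In the fit of these 2 gels by themselves, blocked by trial, CLDN1, CLDN4 and OCLN passed, with 2.23% of all genes. Without the block, CLDN1 ran from −5.32 (without stiff IPN replicate 1) to −3.29 (without stiff IPN replicate 2). Leaving out stiff col replicate 1 or 2 gave −5.04 and −3.48 for CLDN4, −3.82 and −2.82 for OCLN and −1.77 and −0.72 for CLDN7. CLDN1, CLDN4, OCLN and CLDN7 ranked 21, 22, 44 and 387 from the lowest of the 13369 differences. Without the block 0 members passed by limma (0.0% of all genes) and 4 had an unadjusted p under 0.05 (6.27%), and with it 2 passed (2.47%, with 1.0% higher and 1.47% lower).

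CLDN12, TJP1, F11R and MARVELD2 differed by 0.29, −0.02, 0.09 and −0.04, and their libraries overlapped. The intervals ran from −0.37 to 0.94 for CLDN12, from −0.40 to 0.36 for TJP1, from −0.58 to 0.76 for F11R and from −0.66 to 0.59 for MARVELD2. Of the 3 epithelial markers CDH1 and EPCAM fell here with the block. CDH1 (1283 and 1823 in stiff col) fell by 1.63 on the log2 scale and EPCAM (124 and 132) by 1.71, with adjusted p of 0.00781 and 0.0279 with the block and 0.225 and 0.353 without, whereas KRT18 differed by −0.18 (0.664 with the block). The summed epithelial markers were 5969 to 6937 in stiff col against 9528 to 11563 in stiff IPN. Of the basal markers KRT14 fell by 1.52 with the block (0.0328, and 0.855 without) although its libraries overlapped, and KRT5, TP63 and ITGB4 gave −0.86, 0.07 and 0.67 and did not pass. CD68 rose by 1.72 (0.0187 with and 0.818 without the block). Leaving out single libraries, without the block, moved KRT14 between −2.65 and −0.39 and CD68 between 0.65 and 2.79. Their part in the tight junction values was not tested.

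**Figure D3:**
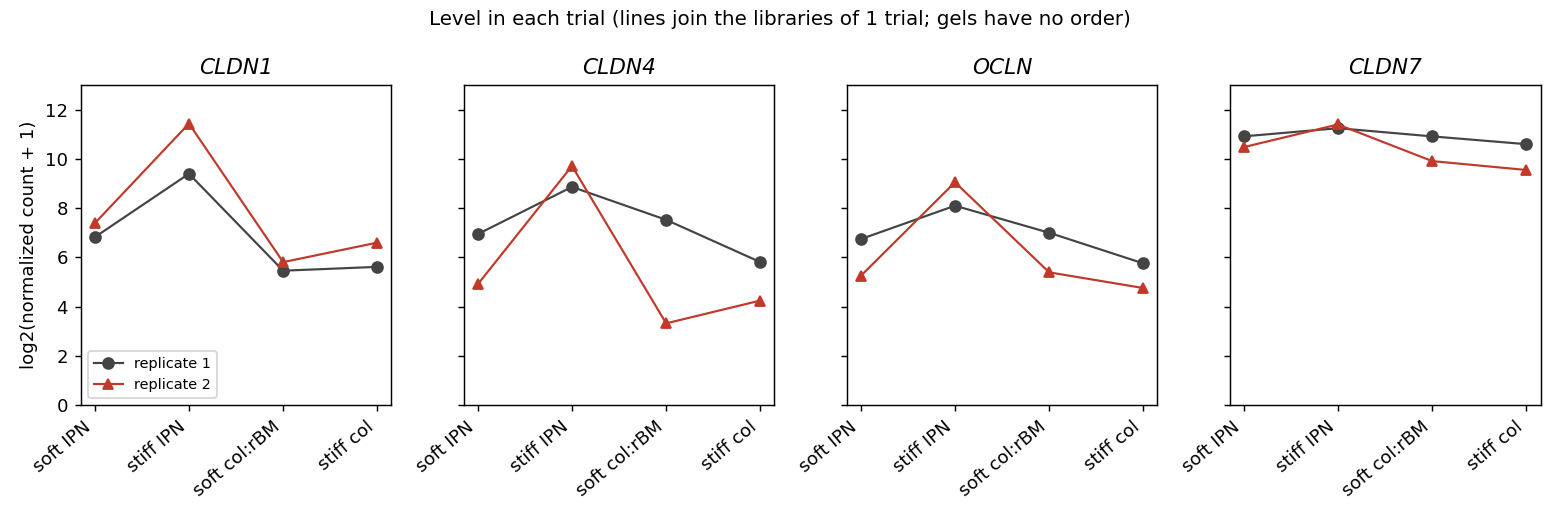
Level of CLDN1, CLDN4, OCLN and CLDN7 as log2(normalized count + 1) in each trial (grey circles, replicate 1; red triangles, replicate 2); lines join libraries of 1 trial and the gels have no order. Each gene is highest in stiff IPN in both trials, and for CLDN4, OCLN and CLDN7 replicate 2 is above replicate 1 in stiff IPN and below it in the other gels.

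Stiff col was compared with soft col:rBM as the stiff and the soft collagen gel. No member was apart between these gels, against 19.0% of all genes tested, 9.51% higher and 9.5% lower. CLDN1 differed by 0.47 (95% interval −1.06 to 2.0), OCLN by −0.94 (−2.64 to 0.75), CLDN4 by −0.40 (−3.50 to 2.71) and CLDN7 by −0.34 (−1.33 to 0.65). CLDN4 was −1.72 in replicate 1 and 0.93 in replicate 2, whereas OCLN was −1.25 and −0.64 and CLDN7 −0.32 and −0.36. Without the block, leaving out soft col:rBM replicate 2 or 1 gave −1.75 and −0.14 for OCLN. CLDN12, TJP1, F11R and MARVELD2 differed by 0.09, −0.02, −0.21 and −0.14. By limma 0 members passed without or with the block (0.0% of all genes in either fit), and 0 had an unadjusted p under 0.05 (1.05% without the block). OCLN and CLDN7 passed only when these 2 gels were fitted by themselves and blocked by trial, with adjusted p of 0.0259 and 0.0132, where 7.47% of all genes passed.

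Soft col:rBM was compared with soft IPN, 2 soft gels with rBM of which 1 holds collagen-1 and the other alginate. CLDN1 was 2.77-fold lower in soft col:rBM, with a log2 difference of −1.47 ± 0.65 and values of −1.36 and −1.58 within the trials. Its libraries did not overlap, and its adjusted p was 1.0 without and 0.654 with the block, against 0.0376 when the 2 gels were fitted alone with the block, where 0.326% of all genes passed. TJP1 was the other member apart, 0.18 higher (95% interval −0.20 to 0.56), so that 2 of 8 members were apart, against 20.7% of all genes, 10.3% higher and 10.4% lower. The others overlapped, at −0.50 for CLDN4, −0.28 for CLDN7, 0.11 for CLDN12, 0.20 for OCLN, −0.04 for F11R and −0.01 for MARVELD2. Without the block 0 members passed (0.0% of all genes) and 0 had an unadjusted p under 0.05 (1.42%), and with it 0 passed (0.0224%, with 0.015% higher and 0.00748% lower).

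The difference between the stiffness effects, collagen gels minus IPNs, was tested as an interaction, where calcium or collagen-1 also differs within each effect. It was −2.84 ± 0.93 for CLDN1, −3.76 ± 1.88 for CLDN4, −3.52 ± 1.02 for OCLN and −0.96 ± 0.60 for CLDN7, and each was negative within both trials. For OCLN the trials gave −2.60 and −4.44, and for CLDN4 −3.63 and −3.88. The CLDN4 value moved to −5.86 without soft col:rBM replicate 2 and to −1.66 without soft col:rBM replicate 1, that of CLDN1 to −3.86 and −1.82 without stiff IPN replicate 1 or 2, that of OCLN to −4.32 and −2.72 without soft col:rBM replicate 2 or 1, and that of CLDN7 to −1.49 and −0.44 without stiff col replicate 1 or 2. CLDN12, TJP1, F11R and MARVELD2 gave 0.17, −0.20, 0.13 and −0.02. By limma 0 members passed without the block (0.0% of all genes), although CLDN1 and OCLN had an unadjusted p under 0.05 (0.017 and 0.01, against 2.08% of all genes), and 0 passed with it (0.015%). With the block the adjusted p was 0.176 for CLDN1, 0.23 for OCLN, 0.409 for CLDN4 and 0.463 for CLDN7, so the difference between the collagen gels and the IPNs in their stiffness effect did not pass the test. Without stiff IPN replicate 1 and with the block, CLDN1, CLDN4, OCLN and CLDN7 passed, at −3.54, −5.48, −4.68 and −1.46, with adjusted p of 0.00531, 0.019, 0.00274 and 0.0226, and the lone stiff IPN library was then assumed to vary like the others. In that fit 4.95% of all genes passed, and without stiff IPN replicate 2 no member and 0.31% of all genes did.

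An F test asked whether a gene differed among any of the 4 gels. CLDN1 passed with the block (adjusted p 0.00794, against 0.37 without), where 1.56% of all genes passed, and OCLN and CLDN4 gave 0.0692 and 0.105 with it. The unadjusted p without the block was 0.000493 for CLDN1, 0.0107 for OCLN and 0.0476 for CLDN4, against 5.24% of all genes under 0.05. CLDN7 gave 0.0941, and the other members 0.612 or more.

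Across the 8 libraries the log2 levels of CLDN4 and OCLN had a Pearson r of 0.96, those of CLDN4 and CLDN7 0.93 and those of CLDN7 and OCLN 0.90, while CLDN1 had 0.77 with OCLN and 0.71 with CLDN4. F11R had 0.72 with CLDN12 and with MARVELD2, and 0.01 with TJP1. These values share libraries, gels and trials and are given as a description. The genes most like CLDN1 over the 8 libraries were SPRR2E (r = 0.998, but 0 to 46 normalized counts), EDN1 (0.982) and ATP6V1C2 (0.98). LMO7 (0.989) and KRT7 (0.982) were among those most like CLDN4. MYO5B (0.986), HS3ST1 (0.975) and MAPK4 (0.975) were most like OCLN, and LINC01057 (0.995), EPS8L1 (0.978) and LOC93622 (0.977) most like CLDN7. For the flatter members the nearest were PGM3, CYBRD1 and JAK1 for CLDN12 (0.987 to 0.988), DCTN2 and LGALS1 among those for F11R (0.983 to 0.988), LOC100506730, TCF7L2 and DNAJC14 for MARVELD2 (0.96 to 0.983) and CACUL1, ZNF281 and UBA6 for TJP1 (0.929 to 0.94). The r values of the 3 genes nearest to TJP1 were thus lower than those of the other members. All these genes were picked as the highest among the tested genes over 8 libraries, and TJP1 was the member with the smallest range.

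The counts of the related lists below stand beside the shares of all genes given above, 3.82% and 2.47% with the block for stiff against soft IPN and for stiff col against stiff IPN, 0.0% between the collagen gels, 0.0224% between the soft gels and 0.0% without the block in each, so a list of this size with no gene passed is near the background. The rest of the claudin family was nearly absent. Of 18 other claudin genes counted, 7 were listed at 0 in all libraries and 6 did not exceed 3 reads in any. Only CLDN15, at 32 to 65 normalized counts, and CLDN23, at 9 to 35, passed the filter. Neither passed the test in any comparison, and CLDN23 was apart only in stiff col (23 and 12) against stiff IPN (28 and 35), with a log2 difference of −0.87, where 30.9% of all genes were apart. CLDN15 was apart only in soft col:rBM (52 and 54) against soft IPN (41 and 32), with 0.54, where 20.7% were.

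Of 9 other membrane proteins of tight junctions 7 were tested. JAM3, an adhesion gene related to F11R, had 1090 and 982 normalized counts in soft IPN, 691 and 441 in stiff IPN, 1726 and 1031 in soft col:rBM and 1628 and 906 in stiff col. With the block it fell in stiff IPN by 0.90 on the log2 scale (adjusted p 0.0409, and 0.522 without) and was 1.14 higher in stiff col than in stiff IPN (0.0253, and 0.604 without), opposite in sign to CLDN1 and OCLN. CXADR, the virus receptor that also joins epithelial cells, had 75 and 70, 118 and 137, 41 and 48, and 18 and 27, and fell by 2.47 from stiff IPN to stiff col (0.00861 with and 0.19 without the block). MARVELD3, the other MARVEL gene beside OCLN and MARVELD2, had 120 and 159 in stiff IPN and 40 and 66 in stiff col and fell by 1.41 (0.0343 and 0.485). Between the collagen gels and between the soft gels none passed, and the largest difference with libraries apart was that of CXADR, at −0.98 and −0.70.

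Of the 16 plaque and scaffold genes 13 were tested and none passed, without or with the block, in any comparison. CGN, which encodes cingulin, had 11 and 9 normalized counts in soft IPN, 27 and 79 in stiff IPN, 11 and 1 in soft col:rBM and 4 and 6 in stiff col, with log2 differences of 2.11 for stiff against soft IPN (adjusted p 0.182 with the block) and −3.00 for stiff col against stiff IPN (0.119). The largest differences with libraries apart were 0.29 for MPDZ between the collagen gels and 0.30 for MAGI3 between the soft gels. The list's median was −0.14 for stiff against soft IPN and −0.06 for stiff col against stiff IPN, beside −0.01 and 0.0 over all genes.

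Of the 13 polarity complex genes 12 were tested. LLGL2, the epithelial lethal giant larvae gene, had 339 and 243 normalized counts in soft IPN, 575 and 1253 in stiff IPN, 279 and 219 in soft col:rBM and 147 and 169 in stiff col, and CRB3, the apical Crumbs gene, had 108 and 105, 160 and 281, 99 and 78, and 47 and 55. From stiff IPN to stiff col LLGL2 fell by 2.42 (adjusted p 0.0193 with and 0.225 without the block) and CRB3 fell by 2.04 (0.0202 and 0.232). None of the list passed for stiff against soft IPN, where LLGL2 had 1.56 with an adjusted p of 0.051 by limma with the block. The paper compared pairs of gels with another test, DESeq2, and lists LLGL2 among genes raised in the stiff IPN. CRB3 had the largest difference with libraries apart in stiff col against soft col:rBM, −0.78, and in soft col:rBM against soft IPN, −0.27.

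Of 12 transcription factors known to act on tight junction genes 10 were tested, and GRHL2 was listed at 0 in all libraries. GRHL1, a grainyhead factor of epithelia, had 33 and 53 normalized counts in soft IPN, 108 and 129 in stiff IPN, 42 and 54 in soft col:rBM and 22 and 48 in stiff col. With the block it rose by 1.47 on the log2 scale in stiff against soft IPN (adjusted p 0.0449, and 0.493 without) and fell by 1.83 from stiff IPN to stiff col (0.0284 and 0.457). GRHL3 fell by 2.38 (0.0153 and 0.577) and the epithelial factor ELF3 fell by 3.94 (0.0213 and 0.432) in the latter comparison. There, leaving out single libraries, without the block, moved GRHL3 between −3.2 and −1.55 and ELF3 between −4.76 and −3.11. SNAI2, a repressor of epithelial junction genes, had 1880 and 879 in stiff IPN and 3276 and 2419 in stiff col and rose by 1.13 (0.0279 and 0.62). None passed between the collagen gels or between the soft gels, where OVOL1 (−1.57) and ELF3 (−2.51) had the largest differences with libraries apart. Between the soft gels ELF3 ran from −3.8 to −1.21 when single libraries were left out, without the block.

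**Figure D4:**
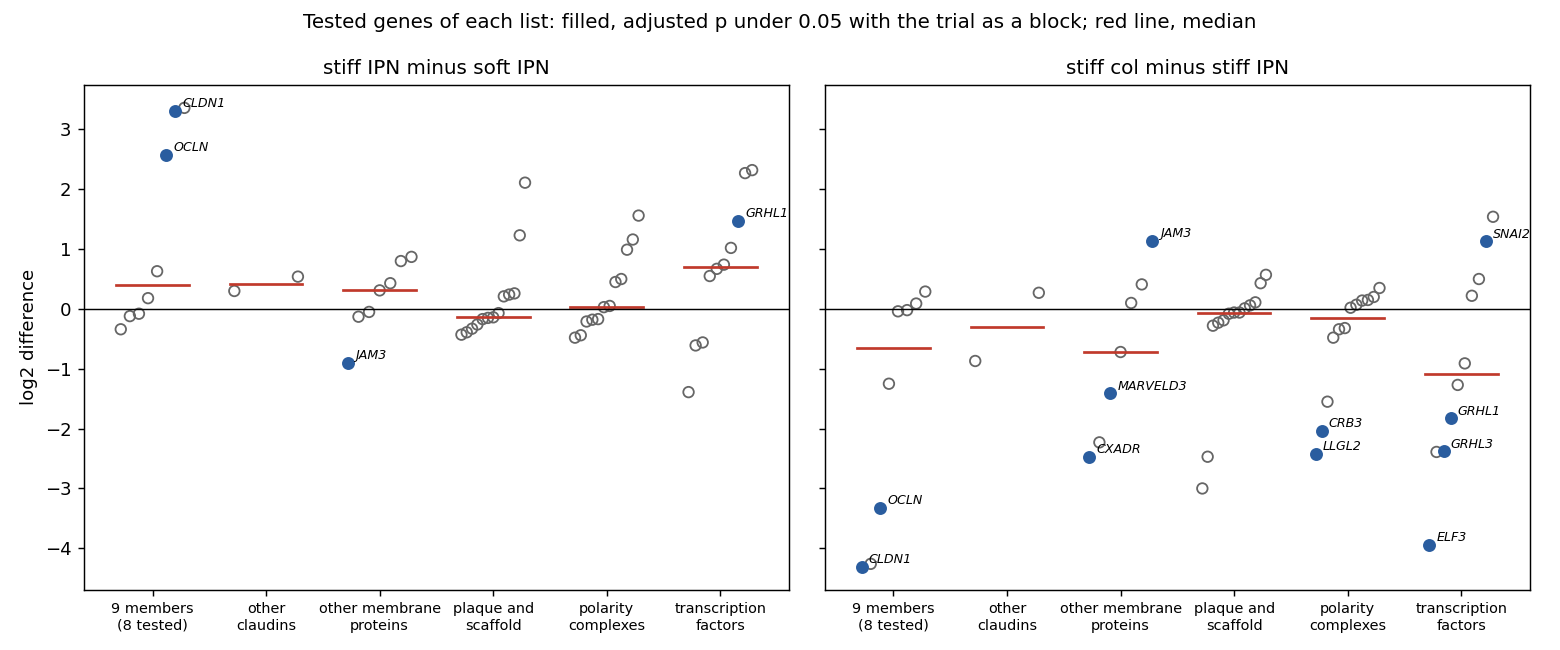
Log2 difference of each tested gene of the 9 tight junction genes and of 5 related lists, for stiff IPN minus soft IPN and stiff col minus stiff IPN; filled points passed limma with the trial as a block, and red lines are list medians. CLDN1 and OCLN pass in both panels with opposite signs, the lists of other claudins and of plaque and scaffold genes have no filled point, and over all genes 3.82% and 2.47% pass.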

How the data were processed

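The authors aligned trimmed RNA-seq reads of 8 libraries to hg19, removed multimapped reads and counted the rest per gene; the methods name Bowtie2 and the submitters' processing notes TopHat2. The deposited values are a signal, the authors' normalized counts (1 factor per library, rounded to whole numbers), so read counts were not modelled. The annotation and strandedness of counting are not given in the sources used here, and the library kit does not mark strand.

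Values were analysed as log2(normalized count + 1) with limma 3.58.1 (statmod 1.5.0, R 4.3.3; 1 mean per gel, all 8 libraries, mean-variance trend, robust moderation), with Benjamini-Hochberg adjustment over the 13369 genes with at least 10 normalized counts in at least 2 libraries and a threshold of 0.05. A fold is on the log2(value + 1) scale and understates changes of low genes. The shift from replicate 1 to replicate 2 correlated in all 6 pairs of gels, in some weakly (r across genes from 0.28 to 0.82). The methods describe independent trials but do not say that replicate numbers match across gels. The trial block was accepted on this assumption. Data were simulated for stiff against soft IPN, with the same shift between trials in every gel and 200 of 13369 genes changed. There limma with the block recovered 69.7% of genes changed by 2 on the log2 scale and 88.2% of those changed by 3. Without the block it recovered 43.9% and 76.8%. False calls were on average 5.17 and 6.33 with the block against 0.333 and 1 without it. With no shift between trials the block recovered 44.9% and 71.8%, against 55.6% and 77.9% without it. In the measured libraries the shift was not the same in every gel, so these shares need not hold for them.

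The 28 symbols turned into dates stayed in the fit and were not named. Positions and exons came from GENCODE 44 on hg19 and upstream bases from RefSeq. Python 3.11.15, numpy 2.4.6, pandas 2.3.3 and matplotlib 3.10.9 were used. The members and lists were chosen with earlier results of these data known. All 9 members are named, with genes of the 5 related lists that passed or, failing that, the largest difference with libraries apart, and the 3 genes most like each member, of which some are not reported here. Other pseudocounts, filters, rescalings, fits of 2 gels alone and fits without each library were tried.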

Additional observations from a re-analysis of the deposited data

Results flagged for a closer look

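The stiffness effect of 3 genes had opposite signs in IPNs and in collagen gels in both trials. The share of all genes tested that meet this rule was not worked out, so the count is a description only. OCLN was higher in stiff than in soft IPN (1.36 and 3.80 on the log2 scale) and lower in the stiff than in the soft collagen gel (−1.25 and −0.64), a difference between effects of −3.52. CLDN7 gave 0.33 and 0.92 in IPNs and −0.32 and −0.36 in collagen gels, a difference of −0.96. CLDN12 gave −0.16 and −0.01 in IPNs and 0.02 and 0.16 in collagen gels, a difference of 0.17. The interaction test of limma did not pass for any of the 3, with adjusted p of 1.0 without the block and 0.23, 0.463 and 0.813 with it.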

How the results depend on the processing

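Of 859 values of the members under alternatives 777 were labelled as unchanged. For a refit this meant the same direction and the same side of the threshold. For a difference within a single trial it meant lying closer to the main value than the pooled SD of replicates, whatever its sign. No member passed under another pseudocount, filter or rescaling, without trend and robust moderation, in fits of 2 gels alone, or without a library, as long as the trial was not a block. With the replicate block 2 members passed for stiff against soft IPN, 2 for stiff col against stiff IPN and 1 in the F test, where 3.82%, 2.47% and 1.56% of all genes passed. When only the 2 gels compared were fitted with the replicate block, the counts were 1 and 3 in these comparisons, 2 between the collagen gels and 1 between the soft gels, beside 2.09%, 2.23%, 7.47% and 0.326% of all genes. Fits with the block and without 1 stiff IPN library were chosen after seeing the data: without replicate 1 the counts were 4, 4 and, for the difference between stiffness effects, 4, and without replicate 2 they were 2 and 2 in the first comparisons. In these fits without replicate 1 the share of all genes that passed was 20.1%, 16.5% and 4.95%, and without replicate 2 it was 8.06% and 5.25%. In the fit without replicate 1 some small differences changed sign, to 0.02 for CLDN12 in stiff against soft IPN, to 0.01, −0.06 and 0.07 for TJP1, F11R and MARVELD2 in stiff col against stiff IPN, and to −0.01 and 0.08 for F11R and MARVELD2 in the difference between effects. The cause was not tested.

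Leaving out each library in turn, without the block, also turned the sign of differences that did not pass in the fits of all 8 libraries. For stiff against soft IPN CLDN12 ran from −0.30 to 0.13 and MARVELD2 from −0.31 to 0.07. For stiff col against stiff IPN TJP1 ran from −0.09 to 0.04, F11R from −0.24 to 0.42 and MARVELD2 from −0.23 to 0.15. Between the collagen gels CLDN1 ran from −0.02 to 0.97, CLDN4 from −2.50 to 1.71, CLDN7 from −0.86 to 0.19, CLDN12 from −0.20 to 0.39, TJP1 from −0.10 to 0.05 and F11R from −0.54 to 0.12. Between the soft gels CLDN4 ran from −2.60 to 1.60, CLDN7 from −0.79 to 0.22, CLDN12 from −0.18 to 0.41, OCLN from −0.60 to 1.01, F11R from −0.32 to 0.24 and MARVELD2 from −0.11 to 0.09. For the difference between effects CLDN12 ran from −0.12 to 0.47, F11R from −0.20 to 0.46 and MARVELD2 from −0.22 to 0.17. CLDN1, CLDN4 and OCLN kept their direction in the first 2 comparisons in each of these fits. With 2 libraries per gel the spread is poorly known, and p values measure the spread between these libraries. CLDN3 and most other claudins did not exceed 3 reads, and differences between gels in them were not detectable at this depth.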
